A study of Mus musculus with 9 samples.

Results

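The neuromuscular junction is the synapse between a motor nerve and a muscle fiber, and 10 genes of its muscle side are described here. They encode the 5 subunits of the muscle acetylcholine receptor (Chrna1, Chrnb1, Chrnd, Chrne and Chrng), the agrin receptor complex and its adaptors (Musk, Lrp4, Dok7 and Rapsn), and the collagen tail that anchors acetylcholinesterase (Colq). The members were chosen by name, as the rows whose Ensembl identifiers carry these symbols, and all 10 were found among the 54532 identifiers of the count table. RNA of injured muscle from C57/BL6J mice was sequenced in 9 libraries. The 3 young PBS libraries came from mice of 3 to 4 months. The 3 old PBS libraries, numbered 2 to 4, and the 3 old rMETRNL libraries came from mice of 24 to 26 months. Every group received barium chloride in the tibialis anterior, a leg muscle, which kills fibers and starts regeneration. The muscles were then injected with PBS, the control, or with rMETRNL, recombinant Meteorin-like protein, in 3 injections whose later times were 24 and 48 h after the injury. The 9 libraries include no uninjured group and no young rMETRNL group.

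The sources used here differ on 3 points of the design. The series description gives collection at day 4 from a suspension of muscle cells, whereas the paper's text gives day 8 and whole muscle for this experiment. The dose is 0.1 ug in one passage and 0.1 ng in another. Nothing states that each library came from a separate animal, so p-values measure the spread between these libraries, which may be technical. In bulk RNA, fewer cells of a type and less RNA per cell cannot be told apart.

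In mature fibers the receptor is built of alpha, beta, delta and epsilon subunits and is packed under the nerve ending. In fetal muscle, and again in regenerating or denervated fibers, the gamma subunit, encoded by Chrng, stands in the place of epsilon, encoded by Chrne. Nerve-derived agrin binds LRP4, which activates the kinase MuSK, and with DOK7 and the scaffold rapsyn this clusters the receptor. Chrng, Chrna1 and other subunit genes carry E-boxes, the sites bound by myogenic factors such as MyoD and myogenin, and Chrne carries an N-box, a site bound by Ets factors of synaptic nuclei.

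The 250 bases before the RefSeq start (GRCm38.p6) are shown for the genes of the fetal-to-adult subunit exchange, Chrng and Chrne, and for Chrna1, the subunit that both receptors share. They run in the direction of the gene, and capitals mark every E-box (CANNTG) and N-box (CCGGAA). The Chrng window lies at chr1:87205561-87205810 on the plus strand, the Chrne window at chr11:70619195-70619444 on the minus strand, and the Chrna1 window at chr2:73580339-73580588 on the minus strand.
Chrng: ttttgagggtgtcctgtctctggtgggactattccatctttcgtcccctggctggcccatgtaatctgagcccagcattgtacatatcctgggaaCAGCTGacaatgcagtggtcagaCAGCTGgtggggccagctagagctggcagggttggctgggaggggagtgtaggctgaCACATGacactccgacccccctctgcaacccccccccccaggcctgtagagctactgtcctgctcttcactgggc
Chrne: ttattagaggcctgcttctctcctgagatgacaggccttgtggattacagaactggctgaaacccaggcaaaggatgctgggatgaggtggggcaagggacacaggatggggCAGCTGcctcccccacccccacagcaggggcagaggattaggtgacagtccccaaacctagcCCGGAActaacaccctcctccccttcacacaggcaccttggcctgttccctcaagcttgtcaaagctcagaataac
Chrna1: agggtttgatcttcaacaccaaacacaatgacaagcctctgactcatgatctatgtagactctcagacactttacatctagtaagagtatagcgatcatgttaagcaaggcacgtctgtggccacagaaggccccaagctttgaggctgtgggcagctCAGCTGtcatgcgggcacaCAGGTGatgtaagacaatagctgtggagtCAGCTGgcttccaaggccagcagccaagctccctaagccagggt

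The Chrng window held 3 E-boxes, of which 2 were CAGCTG, beginning 155 and 132 bases before the start, and the other was CACATG, at 75 bases. Chrna1 also held 3, with CAGCTG at 92 and 44 bases and CAGGTG at 73 bases. The Chrne window held 1 E-box, CAGCTG at 138 bases, and an N-box at 76 bases. Windows were found for 6 of the 10 genes, and Chrne was the only one of these 6 with an N-box. All 6 genes had at least 1 E-box in their first window. Both strands were searched, CANNTG includes the CAGCTG form, and CANNTG was held by 66.2%, CAGCTG by 13% and CCGGAA by 12% of all 32851 windows of this length, so CANNTG itself was common. Matches are letters in a window and no measure of binding. Of the Chrne window, 22 bases lie in the first exon of another annotated Chrne transcript. The Chrng window begins inside the annotated gene, downstream of the first exon of a longer transcript, and 1 of its bases lies in an annotated Chrng exon.

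**Figure D1:**
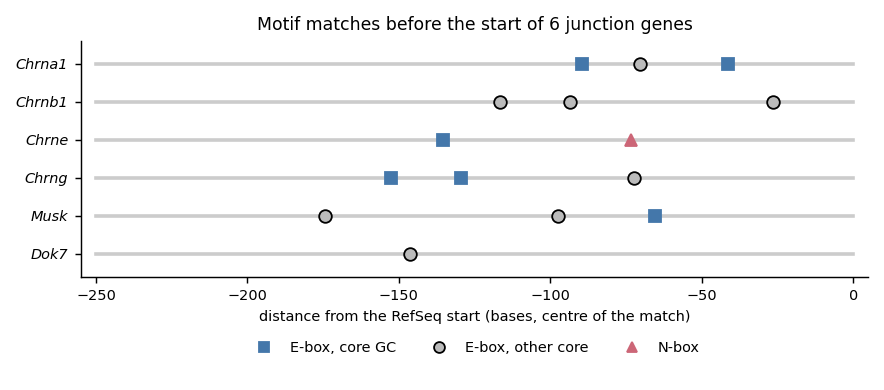
Positions of motif matches in the 250 bases before the RefSeq start of the 6 genes with a window. The x axis is the distance from the start in bases, blue squares are E-boxes with the core GC, grey circles E-boxes with another core and the red triangle the N-box, which lies in Chrne alone.

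The count totals ran from 16238700 to 22522560 reads per library, and 3 reads, taken as the floor of detection, were worth 0.133 to 0.185 CPM, the gene counts scaled to a common library total. All 10 genes lay well above this floor in all 9 libraries and all passed the filter on low counts. They took together 0.0202% to 0.0593% of a library's counts, the least in old PBS replicate 4 and the most in old PBS replicate 3. The old PBS libraries stood apart from the rest before any comparison. The summed level of 8 brain markers was 44.9 to 111 CPM in them and 0.181 to 0.943 CPM in the other 6 libraries, where 4 to 6 of the 8 were at 0. Mobp, a gene of myelin-forming brain cells, had 262 to 665 counts in the old PBS libraries and 0 in every other one, at least 150.0-fold and 158-fold higher than the floor of 3 counts per library in the young PBS and old rMETRNL groups. The summed level of 7 liver markers was 6.41 to 85.1 CPM in the old PBS libraries and at most 0.535 CPM elsewhere. All 12 genes of a fiber reference list, such as Acta1 and Ckm, were present in every library, with a mean level of 10.7 to 11.2 log2 CPM.

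None of the 10 genes changed between groups by the quasi-likelihood test of edgeR, with p-values adjusted by Benjamini-Hochberg over all genes tested. In old PBS against young PBS, 0 of 10 passed, where 0.0643% of the 15560 genes tested did. In old rMETRNL against old PBS it was 0 of 10, where 0.108% of 15682 did. In old rMETRNL against young PBS it was 0 of 10, where 0% of 15396 did, with 371 genes under an unadjusted p of 0.05. DESeq2 also called 0 of the 10 in each comparison, where it called 1.42%, 1.78% and 0% of the genes it tested. At an unadjusted p under 0.05 the members were 0, 1 and 0 in the same order, the 1 being Colq, and the shares of all genes were 5.91%, 8.07% and 2.41%. The first and second comparisons share the old PBS libraries. What varied was the level between libraries of 1 group, which is described gene by gene below.

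**Figure D2:**
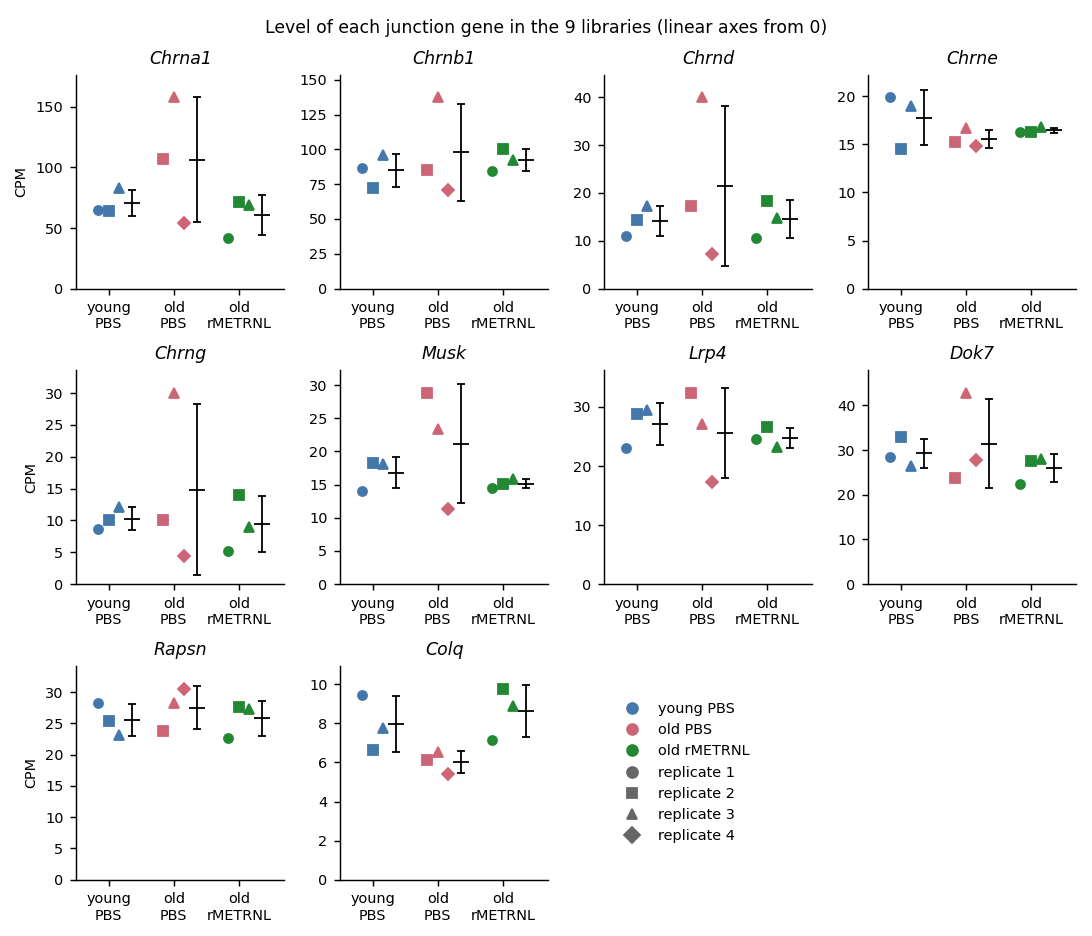
Level of each of the 10 genes in CPM, on linear axes from 0, with 1 point per library, colored by group and shaped by replicate number. The black bar beside each group is the mean with its SD (n = 3), and the old PBS bars are long for Chrng, Chrnd and Chrna1 and short for Chrne and Colq.

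Chrna1 (chr2:73563215-73580338, minus strand, in GRCm38 as for all positions of genes here) encodes the alpha subunit, which holds the acetylcholine binding site and is present in both forms of the receptor. Its level was 65.1, 63.9 and 82.8 CPM in young PBS replicates 1 to 3, 107, 158 and 54.1 CPM in old PBS replicates 2 to 4, and 41.8, 71.7 and 69.1 CPM in old rMETRNL replicates 1 to 3. The old PBS group held the highest values, in replicates 2 and 3, and a value below all young PBS libraries, in replicate 4, so the groups overlapped. The group means were 70.6 ± 10.6, 106 ± 51.8 and 60.9 ± 16.5 CPM (SD, n = 3 each). The log2 fold change of old rMETRNL against old PBS was -0.81 ± 0.37 (SE), with a 95% interval of -1.64 to 0.019 and an edgeR adjusted p of 0.635. It was 0.59 ± 0.34 for old PBS against young PBS (adjusted p = 0.979) and -0.21 ± 0.19 for old rMETRNL against young PBS. When genes of low count were kept in the test, Chrna1 passed in old rMETRNL against old PBS (log2 fold change -0.80, edgeR adjusted p = 0.0302), and it passed under no other alternative. In that setting the genes called in this comparison rose from 17 to 740, and their share of the genes tested was not computed.

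Chrnb1 (chr11:69784036-69795943, minus strand) and Chrnd (chr1:87190607-87200070, plus strand) encode the beta and delta subunits, the other parts that both receptor forms share. The level of Chrnb1 was 72.4 to 96.0 CPM in young PBS, 71.1 to 137 CPM in old PBS and 84.6 to 100.4 CPM in old rMETRNL. Old PBS replicate 3 was 1.37-fold above the next library, and the other 8 libraries lay within 1.41-fold of each other. The level of Chrnd was 11.0, 14.4 and 17.2 CPM in young PBS, 17.2, 40.0 and 7.23 CPM in old PBS and 10.5, 18.3 and 14.7 CPM in old rMETRNL. Chrnd thus had both its highest and its lowest library within the old PBS group, 5.53-fold apart. Its log2 fold change was 0.61 ± 0.51 for old PBS against young PBS and -0.58 ± 0.51 for old rMETRNL against old PBS, and both turned sign without old PBS replicate 3 (-0.22 and 0.25). For Chrnb1 the same values were 0.20 ± 0.26 and -0.090 ± 0.25, and they were -0.12 and 0.24 without that library.

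Chrng (chr1:87204657-87212694, plus strand), the fetal subunit and the next of the members along the chromosome after Chrnd, varied most of the 10 between libraries. Its level was 8.60, 10.04 and 12.2 CPM in young PBS, from 149, 181 and 216 counts. It was 10.03, 30.0 and 4.46 CPM in old PBS replicates 2 to 4, from 149, 687 and 71 counts, and 5.25, 14.0 and 8.91 CPM in old rMETRNL. The highest and lowest libraries, 6.72-fold apart, both belonged to the old PBS group, whose coefficient of variation was 90.6%, where young PBS had 17.5% and old rMETRNL 46.9%. The log2 fold change was 0.54 ± 0.57 for old PBS against young PBS, with a 95% interval of -0.76 to 1.84. It was -0.68 ± 0.61 for old rMETRNL against old PBS, with an interval of -2.07 to 0.71. Without old PBS replicate 3 they were -0.51 and 0.37, so their signs rested on that library. In old rMETRNL against young PBS the value was -0.13 ± 0.29, and it turned to 0.0076 without young PBS replicate 3 and to 0.15 without old rMETRNL replicate 1. Without the old PBS group, the remaining 6 libraries still lay within a 2.67-fold range.

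Chrne (chr11:70614883-70619216, minus strand), the adult subunit, hardly varied. Its level was 19.9, 14.5 and 18.9 CPM in young PBS, 15.2, 16.6 and 14.8 CPM in old PBS and 16.3, 16.3 and 16.8 CPM in old rMETRNL. The highest library was 1.37-fold above the lowest, and both were young PBS libraries. The log2 fold changes were -0.19 ± 0.18, 0.077 ± 0.16 and -0.11 ± 0.14 in the 3 comparisons, and the widest 95% interval ran from -0.61 to 0.22. Chrne shares its locus with 4930544D05Rik, a gene on the other strand with 15 to 72 counts per library. The library kit does not mark strand, so reads of the overlap cannot be assigned to either gene.

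The ratio of Chrng to Chrne counts within a library does not depend on its depth and shows how far the fetal subunit stood against the adult one. It was 0.433, 0.691 and 0.643 in young PBS, 0.659, 1.80 and 0.302 in old PBS and 0.322, 0.861 and 0.531 in old rMETRNL. Old PBS replicate 3 was the only library with more Chrng than Chrne counts, and its 95% Wilson interval of 1.59 to 2.04, which like the others covers counting error only, lay above the intervals of all other libraries. Old PBS replicate 4 and old rMETRNL replicate 1 were the lowest, with intervals of 0.232 to 0.394 and 0.257 to 0.405. On the log2 scale with 0.5 counts added, the group means were -0.79 ± 0.36, -0.49 ± 1.29 and -0.92 ± 0.71 (SD, n = 3 each). The differences were 0.30 for old PBS against young PBS, -0.43 for old rMETRNL against old PBS and -0.13 for old rMETRNL against young PBS. The two-sided exact permutation p-values were 0.8, 0.7 and 0.8, where 3 against 3 libraries cannot give less than 0.1. All 3 differences turned sign when a single library was left out, to -0.37 and 0.24 without old PBS replicate 3 and to 0.23 without old rMETRNL replicate 1. As the difference of the edgeR fold changes of the subunits, the first and second were 0.73 and -0.75. Per kilobase the ratio depends on the length taken. With exon lengths of 4163 bases for Chrng and 1690 for Chrne it ran from 0.123 to 0.732, and with coding lengths of 1557 and 1482 bases from 0.288 to 1.72.

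**Figure D3:**
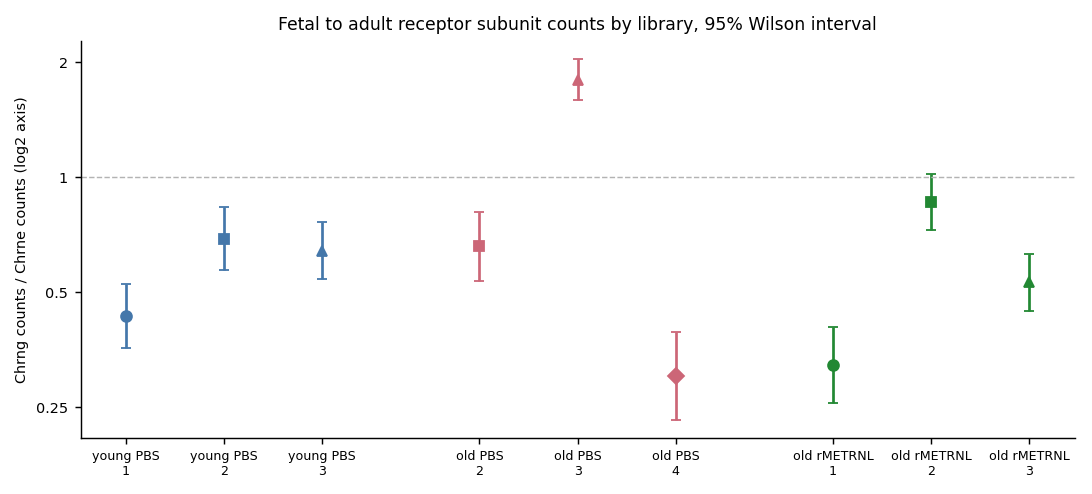
Chrng counts divided by Chrne counts in each library, on a log2 axis, with 95% Wilson intervals for counting error. The dashed line marks equal counts. Old PBS replicate 3 lies alone above it at 1.80, and old PBS replicate 4 is the lowest at 0.302.

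Musk (chr4:58285960-58374303, plus strand) encodes the muscle-specific kinase of the agrin receptor. Its level was 14.1, 18.2 and 18.0 CPM in young PBS, 28.8, 23.4 and 11.3 CPM in old PBS and 14.5, 15.2 and 15.8 CPM in old rMETRNL. The old PBS group again held the highest libraries, here with replicate 2 above replicate 3, and the lowest, replicate 4. The log2 fold change was 0.33 ± 0.32 for old PBS against young PBS and -0.49 ± 0.30 for old rMETRNL against old PBS (edgeR adjusted p = 0.716), and these were 0.051 and -0.20 without old PBS replicate 2. Lrp4 (chr2:91457511-91513779, plus strand), the agrin-binding partner of MuSK, had a level of 23.0 to 29.5 CPM in young PBS, 17.3 to 32.4 CPM in old PBS and 23.2 to 26.6 CPM in old rMETRNL. Its highest and lowest libraries were those of Musk, old PBS replicates 2 and 4. Its log2 fold changes lay between -0.13 and -0.051 in the 3 comparisons, with SEs of 0.13 to 0.24, and the first turned to 0.13 without old PBS replicate 4 and the second to 0.15 without old PBS replicate 2.

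Dok7 (chr5:35056766-35087839, plus strand) encodes the adaptor that activates MuSK from inside the fiber. Its level was 28.4, 32.9 and 26.4 CPM in young PBS, 23.8, 42.8 and 27.7 CPM in old PBS and 22.3, 27.5 and 27.9 CPM in old rMETRNL. Only old PBS replicate 3 stood off, at 1.30-fold above the next library, and without it the log2 fold changes that involve old PBS went from 0.11 to -0.19 and from -0.29 to 0.0064. Rapsn (chr2:91035620-91045729, plus strand) encodes rapsyn, which binds the receptor and holds it in clusters. Its level was 28.2, 25.3 and 23.1 CPM in young PBS, 23.8, 28.2 and 30.6 CPM in old PBS and 22.6, 27.7 and 27.2 CPM in old rMETRNL. The range of Rapsn, 1.35-fold over 9 libraries, was the smallest of the 10 genes, and old PBS replicate 4, the lowest library for Chrng, was its highest. Its log2 fold changes of 0.11 ± 0.16, -0.096 ± 0.17 and 0.016 ± 0.13 had 95% intervals within -0.47 and 0.47. Rapsn overlaps Gm13778, a transcript of the other strand with 10 to 30 counts per library.

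Colq (chr14:31523082-31591343, minus strand) encodes the collagen tail that holds acetylcholinesterase in the cleft. Its level was 9.47, 6.66 and 7.78 CPM in young PBS, 6.12, 6.55 and 5.41 CPM in old PBS and 7.17, 9.78 and 8.91 CPM in old rMETRNL. All 3 old PBS libraries were below all 6 others, and Colq was the only member whose groups did not overlap, in the 2 comparisons with old PBS. That was 1 of 10 members in each, where groups did not overlap for 10.5% and 12.7% of all genes tested, and 0 of 10 in old rMETRNL against young PBS, where they did not for 6.9%. The log2 fold change was 0.51 ± 0.21 for old rMETRNL against old PBS, with a 95% interval of 0.026 to 0.99, an unadjusted p of 0.0408 and an edgeR adjusted p of 0.594. It was -0.40 ± 0.22 for old PBS against young PBS (edgeR adjusted p = 0.961) and 0.11 ± 0.19 for old rMETRNL against young PBS. Both of the first values kept their sign whichever library was left out, at 0.41 to 0.63 and -0.52 to -0.26. The summed level of 6 macrophage markers was also lower in all 3 old PBS libraries, at 1017 to 1313 CPM, than in the other 6, at 1331 to 1729 CPM, while the list's mean log2 CPM overlapped (5.97 to 6.53 and 6.50 to 6.799). A list of 5 fibro-adipogenic cell markers was lower in the old PBS libraries by both measures, at 2047 to 3059 CPM summed where the others had 3234 to 5169 CPM, and at 7.84 to 8.15 mean log2 CPM where they had 8.26 to 8.78. Its genes were mixed in old PBS against young PBS, with 3 lower and 2 higher. Mean Col1a1 was 1323 against 3012 CPM, whereas Dcn was 774 against 718 CPM and Ly6a 86.3 against 77.7 CPM. In old rMETRNL against old PBS all 5 were higher. The part of either list in the Colq values was not tested.

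**Figure D4:**
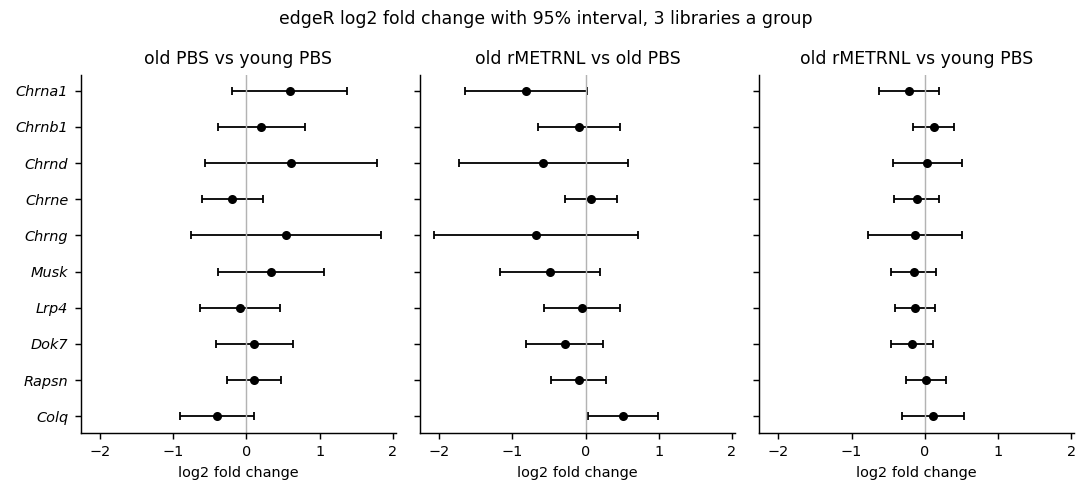
Log2 fold change of each gene by edgeR in the 3 comparisons, with its 95% interval (points and bars, 3 libraries a group, 0 marked by a grey line). Of the 30 intervals only that of Colq in old rMETRNL against old PBS leaves out 0, and the intervals are narrower in the comparison without old PBS.

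The old PBS replicate 3 library was the highest of the 9 for 5 members (Chrna1, Chrnb1, Chrnd, Chrng and Dok7), and old PBS replicate 4 was the lowest for 6 (Chrnb1, Chrnd, Chrng, Musk, Lrp4 and Colq). Old rMETRNL replicate 1 was the lowest for 3 (Chrna1, Dok7 and Rapsn). Over the 10 members the median log2 fold change was 0.16 in old PBS against young PBS, -0.19 in old rMETRNL against old PBS and -0.12 in old rMETRNL against young PBS, beside 0.014, -0.0056 and 0.00089 over all genes tested. Of the 10, 7, 2 and 4 had a value above 0, where 52.1%, 49.3% and 50.2% of all genes did.

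Levels can be compared between genes only per length. As CPM per kilobase of annotated exon, averaged over the 9 libraries, the order was Chrnb1 at 36.3 ± 7.75 (SD), Chrna1 at 18.1 ± 7.89, Rapsn at 14.6 ± 1.52, Chrne at 9.82 ± 1.07, Dok7 at 6.75 ± 1.40, Chrnd at 5.09 ± 2.87, Musk at 4.69 ± 1.42, Chrng at 2.76 ± 1.82, Lrp4 at 2.46 ± 0.422 and Colq at 1.98 ± 0.407. The ranges of mean ± SD overlapped for Chrna1 and Rapsn and for each neighboring pair from Dok7 down to Colq. They did not overlap for Chrnb1 and Chrna1, Rapsn and Chrne, or Chrne and Dok7. Overlap of these ranges does not show that 2 genes were equal, because both were measured in the same libraries. Dok7 lay above Chrnd, and Musk above Chrng, in every library except old PBS replicate 3. In the other overlapping pairs either gene was the higher one in several libraries. The order differed between groups. Chrng was in place 9 in young PBS, 8 in old PBS and 10 in old rMETRNL, and Chrna1 stood below Rapsn in old rMETRNL, at 13.9 ± 3.77 and 14.3 ± 1.56 CPM per kilobase of exon. Chrnb1 was above Chrna1 in every library by exon length, by 1.38-fold to 3.51-fold. By coding length it was below Chrna1 in old PBS replicates 2 and 3, at 0.727 and 0.794 of it, and above it in the other 7. Chrne and Dok7 also changed places by coding length, at 11.2 ± 1.21 and 16.9 ± 3.51 CPM per kilobase. The subunits did not keep a fixed ratio to Chrna1. The count ratio of Chrnd to Chrna1 ran from 0.134 in old PBS replicate 4 to 0.256 in old rMETRNL replicate 2, and that of Chrne to Chrna1 from 0.106 in old PBS replicate 3 to 0.389 in old rMETRNL replicate 1.

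Set against the fiber reference list, as log2 CPM of the member minus the mean log2 CPM of the 12 list genes, the members' differences between groups were tested by exact permutation, and none had a p below 0.1, the smallest that 3 against 3 libraries allow. They ran from -0.44 to 0.42 in old PBS against young PBS, from -0.60 to 0.61 in old rMETRNL against old PBS and from -0.19 to 0.18 in old rMETRNL against young PBS. Colq in old rMETRNL against old PBS was the only one to reach that value, with a difference of 0.61 between -7.83 ± 0.15 and -8.44 ± 0.39 (SD, n = 3 each).

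A list of 5 genes of newly formed fibers (Myh3, Myh8, Myl4, Actc1 and Tnnt2), the embryonic, perinatal and fetal forms of contractile proteins, gave the same order of the old PBS libraries as Chrng. Its mean level was 7.82 to 8.24 log2 CPM in young PBS and 7.51 to 8.30 in old rMETRNL, but 7.61, 9.46 and 6.56 in old PBS replicates 2, 3 and 4. Myh3, the embryonic myosin heavy chain, alone ran from 55.5 CPM in old PBS replicate 4 to 1256 CPM in old PBS replicate 3. The relation of the members to this list was computed after their levels had been examined. The 9 libraries span all 3 groups, a group of 3 is too small for a value of its own, and both measures share the library and its scaling. How many of all genes follow the list as closely was not computed. The relations are therefore not shown to be particular to the members.

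The log2 level of Chrng followed the list with Pearson's r of 0.95 (exact permutation p = 9.65e-05, adjusted over the 11 relations computed 0.00106) and Spearman's rho of 0.95 (exact permutation p = 0.000353, adjusted 0.00388). Without the 2 libraries farthest from the median of the list, old PBS replicates 3 and 4, r was 0.82 over 7 libraries (exact permutation p = 0.00972). The p-values without these libraries, here and below, were not adjusted over the 11 relations. They therefore do not show that a relation would pass without them. For Chrnd r was 0.93 and rho 0.82 (exact permutation p = 0.00186 and 0.0108, adjusted 0.00681 and 0.0296). For Chrnb1 r was 0.85 and rho 0.83 (exact permutation p = 0.0107 and 0.00827, adjusted 0.0294 and 0.0296). Without the same libraries r fell to 0.59 and 0.28, with exact permutation p-values of 0.171 and 0.565. Leaving out the libraries farthest from the median narrows the range of the list and leaves 7 libraries. This therefore cannot show whether these relations rested on those libraries. The Chrng to Chrne log2 ratio gave r of 0.92 and rho of 0.87 (exact permutation p = 0.000609 and 0.00451, adjusted 0.00335 and 0.0248), and r of 0.75 without them (exact permutation p = 0.0536). Chrna1 did not pass after adjustment (r of 0.72 and rho of 0.67, exact permutation p = 0.0373 and 0.0589, adjusted 0.0820 and 0.130). For Chrne r was 0.28 and rho 0.35 (exact permutation p = 0.466 and 0.359), and for Rapsn they were -0.063 and 0.017 (exact permutation p = 0.879 and 0.982). Musk, Lrp4, Dok7 and Colq had r of 0.55, 0.59, 0.70 and 0.30 and rho of 0.50, 0.43, 0.47 and 0.40 (exact permutation p of r = 0.120, 0.104, 0.0499 and 0.455, of rho = 0.178, 0.2499, 0.213 and 0.291), and none passed after adjustment (smallest 0.0915).

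**Figure D5:**
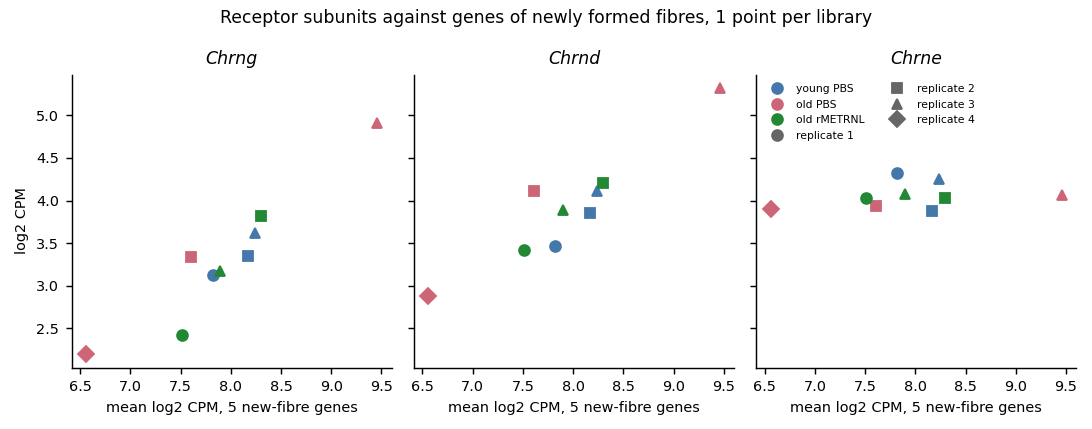
Log2 CPM of Chrng, Chrnd and Chrne against the mean log2 CPM of 5 genes of newly formed fibers, 1 point per library, colored by group and shaped by replicate number. Chrng follows the list (r of 0.95), while Chrne stays between 3.87 and 4.32 log2 CPM.

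The genes nearest to a member were found as those with the smallest root mean square difference of centered log2 CPM over the 9 libraries, among 16123 others. For Chrng they were Gm28653 at 0.17, Ncam1 at 0.18 and Mymk at 0.19, and Chrnd followed in place 4 at 0.20. Gm28653 is a long noncoding RNA gene at chr1:20669882-20684298 (GRCm38) whose span contains the muscle microRNA genes Mir206 and Mir133b, Ncam1 is the neural cell adhesion molecule of myoblasts and denervated fibers, and Mymk encodes myomaker, which fuses myoblasts. The level of Ncam1 was 27.8 to 52.2 CPM in young PBS, 41.9, 96.3 and 20.6 CPM in old PBS replicates 2, 3 and 4, and 22.2 to 45.7 CPM in old rMETRNL. For Chrna1 the nearest were 4930578M01Rik at 0.15, Gbp10 at 0.19 and AC169509.1 at 0.21, with Chrnd in place 50. For Chrne, whose SD over the libraries was 0.15 log2 CPM, they were Suv39h1, Cyp20a1 and Nudt21 at 0.069 to 0.080, and Chrng stood in place 14732.

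Of 45 further junction genes in 5 lists (basal lamina and esterase, scaffold and adaptors, neuregulin and transcriptional control, glycosylation and endplate enzymes, and fiber channels), 43 were tested and 0 passed in any of the 3 comparisons by edgeR or DESeq2. At an unadjusted p under 0.05 they were 2, 3 and 1 of the 43, where the shares of all genes were 5.91%, 8.07% and 2.41%. Their median log2 fold changes were -0.098, 0.084 and -0.016. Ache, the esterase that Colq anchors, was looked at for that reason after the values were seen. Its level was 66.4 to 80.9 CPM in young PBS, 55.7 to 59.5 CPM in old PBS and 67.9 to 85.7 CPM in old rMETRNL. As for Colq, the old PBS libraries were the 3 lowest. Groups did not overlap for 4 of the 43 genes in old PBS against young PBS, where they did not for 10.5% of all genes. In old rMETRNL against old PBS it was 5 of 43, where 12.7% of all genes did not overlap. These counts were near the shares over all genes. Ache was picked from among them. Its log2 fold change was -0.40 ± 0.15 for old PBS against young PBS (edgeR adjusted p = 0.751) and 0.37 ± 0.16 for old rMETRNL against old PBS (adjusted p = 0.610). Agrn, which encodes agrin, had a level of 36.8 to 54.8, 23.5 to 56.8 and 44.7 to 58.6 CPM in young PBS, old PBS and old rMETRNL. Of the 11 subunit genes of neuronal receptors only 3 had enough counts to be tested, and none passed.

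Of 14 genes that respond to denervation, 13 were tested and 0 passed by edgeR. DESeq2 called 1 in old PBS against young PBS and 1 in old rMETRNL against old PBS. Of all genes it tested, DESeq2 called 1.42% and 1.78% there. Over the 13 genes tested the median log2 fold changes were 0.30, -0.37 and -0.065 in the 3 comparisons. The list was not sorted by the direction in which each gene responds, so these medians are no measure of denervation. Dach2, a repressor whose gene is controlled by innervation, changed most by fold in old rMETRNL against old PBS, at -2.54 ± 0.98 (edgeR adjusted p = 0.546). It had 122, 12 and 175 counts in old PBS replicates 2, 3 and 4, 9 to 53 counts in old rMETRNL and 12 to 41 counts in young PBS, so old PBS replicate 3 lay with the other groups. Gadd45a, a stress gene that rises in denervated muscle, was picked after the values were seen. Its level was 32.8 to 51.3 CPM in old PBS, 19.2 to 25.8 CPM in young PBS and 17.3 to 24.5 CPM in old rMETRNL. The log2 fold changes of Gadd45a were 0.98 ± 0.21 in old PBS against young PBS and -1.05 ± 0.21 in old rMETRNL against old PBS (edgeR adjusted p = 0.176 and 0.119). Its groups did not overlap in either comparison. That was 1 of the 13 genes tested in each, where 10.5% and 12.7% of all genes did not overlap. Myog, which encodes the E-box factor myogenin, had a level of 29.7, 87.0 and 17.0 CPM in old PBS, 60.4 to 65.7 CPM in young PBS and 67.1 to 96.7 CPM in old rMETRNL.

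Genes of the motor nerve terminal were at low levels, 39.4 to 72.3 CPM summed over the list. Of its 10 genes, 5, 5 and 4 were tested and 0 passed by edgeR in the 3 comparisons, Slc18a3, the vesicular acetylcholine transporter, had 0 counts in every library, and Chat, which makes acetylcholine, was at most 0.202 CPM. Nefl, a neurofilament of axons, had 47, 20 and 92 counts in old PBS replicates 2, 3 and 4 and 0 in the other 6 libraries, which is at least 17.0-fold above the floor of 3 counts per library in young PBS and at least 17.9-fold above it in old rMETRNL (edgeR adjusted p = 0.118 and 0.0912). Of 8 genes of Schwann cells, the glia of peripheral nerve, 7, 7 and 6 were tested and 0 passed by edgeR. DESeq2 called 1 nerve terminal gene and 2 Schwann cell genes in old PBS against young PBS, the same numbers in old rMETRNL against old PBS, and 0 in old rMETRNL against young PBS. Of all genes it tested, it called 1.42%, 1.78% and 0% in these comparisons. S100b, a glial calcium-binding protein, had 61 to 174 counts in old PBS and 9 to 40 in the others, with a log2 fold change of 2.43 ± 0.61 in old PBS against young PBS (edgeR adjusted p = 0.299). Syt2, a synaptotagmin of nerve terminals, had 63, 60 and 91 counts in old PBS, 22 to 32 in young PBS and 41 to 56 in old rMETRNL, and its log2 fold change of 0.76 ± 0.31 in old rMETRNL against young PBS had an adjusted p of 0.99959. Nefl and S100b were highest in the libraries that also held the brain markers (44.9 to 111 CPM summed), whose part in these values was not tested. Old PBS replicate 3, the highest library for Chrng, was the lowest of the 3 in brain markers and Nefl. For the liver markers it lay between the others, at 29.8 CPM summed, with 85.1 CPM in replicate 2 and 6.41 CPM in replicate 4. The part of brain or liver RNA in the Chrng values was not tested.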

How the data were processed

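RNA of injured tibialis anterior muscle was sequenced in 9 libraries, 3 per group. The authors deposited raw read counts per Ensembl gene, unnormalized and with replicates apart. Library preparation used NEBNext Ultra reagents, with paired-end reads. The submitters' processing notes name STAR, featureCounts and mm9 without versions. The identifiers include genes of a later annotation, so coordinates and lengths are those of the GRCm38 annotation (GENCODE M21), and 54409 of 54532 identifiers matched a symbol. The strand setting is not given in the sources used here. Colq shares its locus with Gm49387 and Gm24057, both at 0 counts.

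CPM used TMM factors over 9 libraries, and log2 CPM a prior count of 2. Pairs of groups were tested with edgeR 4.0.16 (quasi-likelihood, filterByExpr, Benjamini-Hochberg at 0.05) in R 4.3.3 on the 6 libraries concerned. DESeq2 1.42.0 was an alternative. Single values were compared by exact permutation, enumerated in Python 3.11.15, and SciPy 1.17.1 gave the Wilson intervals and Spearman's rho. Totals of 16238700 to 22522560 reads set the precision, and Wilson intervals and floors cover counting error only, whereas the intervals of fold changes come from the spread between libraries. The fit was tested on counts simulated with the spread of old rMETRNL against young PBS, with 200 genes changed. There edgeR recovered 100 genes changed 4-fold and 98 changed 2-fold, with 8 false calls. The wider spread of the old PBS libraries was not simulated, so this does not cover the comparisons with old PBS. Named list genes were those past the threshold and the 3 of largest fold change per comparison with a mean of at least 1 CPM, nearest genes were the first 3, and Ache, Agrn, Gadd45a and Myog were added after values were seen. A list gene that this rule names is not reported here. The members and lists were chosen with earlier results of these data known. Alternatives were other scaling, filters, DESeq2, a fit of all 9 libraries, replicate blocks and leaving out each library. Motifs were searched in RefSeq windows. Windows for Chrnd, Rapsn, Lrp4 and Colq were not used here.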

Additional observations from a re-analysis of the deposited data

How the results depend on the processing

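The 10 members stayed uncalled under every alternative run except that 1 passed (Chrna1, old rMETRNL against old PBS) with no filter on low counts. With no filter the genes called in that comparison rose from 17 to 740. Of the 180 values of the 30 member fold changes under alternatives other than leaving out a library, 178 kept their direction, and those that did not were, under the replicate block, Lrp4 in old PBS against young PBS (0.020) and Rapsn in old rMETRNL against old PBS (0.075). Same-numbered libraries did not all deviate together (correlations of -0.32 to 0.41), so the number is no pairing. The block moved the genes called from 17 to 65 in old rMETRNL against old PBS and changed no member's call.

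Leaving out 1 library at a time turned the direction of some log2 fold changes. In old PBS against young PBS, Chrnb1 ranged from -0.12 to 0.39, Chrnd from -0.22 to 1.02, Chrng from -0.51 to 0.97 and Dok7 from -0.19 to 0.27, each below 0 without old PBS replicate 3, and Lrp4 from -0.29 to 0.13. In old rMETRNL against old PBS, Chrnb1 ranged from -0.29 to 0.24, Chrnd from -0.999 to 0.25, Chrng from -1.12 to 0.37 and Dok7 from -0.45 to 0.0064, each above 0 without old PBS replicate 3, and Lrp4 from -0.28 to 0.15. In old rMETRNL against young PBS, Chrnd ranged from -0.16 to 0.22, Chrng from -0.53 to 0.15 and Rapsn from -0.053 to 0.10. The Chrng to Chrne log2 ratio ranged from -0.37 to 0.92, -1.04 to 0.24 and -0.48 to 0.23 in the 3 comparisons. Taken as the difference of the fitted fold changes it was 0.73, -0.75 and -0.021, and under the replicate block 0.71, -0.69 and -0.13, so the first and second values, 0.30 and -0.43, moved by over 1.5 times. The members' median difference relative to the fiber list ranged from -0.39 to 0.29, -0.27 to 0.36 and -0.15 to 0.068, and with the new-fiber list as reference it was 0.31 and 0.060 in the first and last. Chrng relative to the fiber list ranged from -0.80 to 0.81, -0.98 to 0.63 and -0.49 to 0.13. Chrne relative to the new-fiber list was 0.019 and 0.073 in the first and last, and relative to the fiber list ranged from -0.21 to 0.080 in the last. The cause was not tested.

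The genes called numbered 10, 17 and 0. They were 354, 740 and 132 with no filter, 3 and 1 in the first and second with at least 10 counts in every library, 265 and 354 with DESeq2, and 63 and 71 in a fit of all 9 libraries. Leaving out a library gave 2 to 401, 3 to 1560 and 0 to 1, with 401 and 1560 both without old PBS replicate 3. With 3 libraries a group, the 95% intervals of Chrng reached 1.84 upward and -2.07 downward on the log2 scale, so changes of up to that size in it lay inside them.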
